A study of Rattus norvegicus with 4 samples.

Results

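The genes described here encode the proteasome, the protease that degrades ubiquitin-tagged proteins, and their m6A marks were compared between arcuate nuclei of 5-week-old and 3-week-old female rats. They were chosen by symbol: every gene named Psma, Psmb, Psmc, Psmd, Psme, Psmf or Psmg followed by a number, pseudogenes left out, which gave 36 of the 14676 gene symbols in the peak lists. The pattern also takes in Psmc3ip, a cofactor of meiotic recombination, and Psme3ip1, which binds a proteasome activator. Neither is a proteasome subunit, and 34 genes remain without them. Of the 36 genes, 30 carried the pathway label "Proteasome" in the deposited annotation, and the 6 that did not were Psmd5, Psmg1, Psmg3, Psmg4, Psmc3ip and Psme3ip1.

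In MeRIP-seq, fragments of poly(A) RNA that carry N6-methyladenosine (m6A) are pulled down with an antibody (IP) and compared with the same RNA before the pull-down (input), and an m6A peak is a stretch where IP exceeds input. The older pool, labelled ARC_352, was the arcuate nucleus of 5-week-old female Sprague-Dawley rats, and the pool it was set against, labelled ARC_212, came from 3-week-old females of that strain. No treatment or allele was named for either pool, each of which held the tissue of 3 rats and gave 1 IP and 1 input library, 4 libraries in all. The labels give no ages, and the codes were read as 5 and 3 weeks from the study's methods. With 1 library of each kind per age there is no replicate error and no test of any difference between the ages, and the animal, the dissection and the library cannot be told apart from age. The tables hold enrichment of IP over input only, so the depth of the libraries and the level of each transcript are unknown.

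The proteasome consists of a barrel-shaped 20S core, in which rings of alpha subunits (Psma genes) gate the entry and rings of beta subunits (Psmb genes) hold the catalytic sites, capped by 19S regulatory particles that bind ubiquitin chains, remove them and unfold the substrate with a ring of ATPases (Psmc genes) and a set of non-ATPase subunits (most Psmd genes). Other caps (Psme genes) open the core without ubiquitin, and dedicated chaperones (Psmg genes, Psmd5, Psmd9 and Psmd10) build the particle. In neurons the proteasome takes part in protein turnover at synapses. m6A is placed on mRNA as it is made, most often near the stop codon and in long exons, and proteins that read it affect the decay and translation of the mRNA.

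The tissue label was checked by which marker genes had a peak, which shows that a transcript was sampled and not its level. Of 12 arcuate neuron markers, 9 were listed at 5 weeks and 6 at 3 weeks, and Agrp, Kiss1 and Ghrh had none at either age. All 5 oligodendrocyte, 4 astrocyte and 5 microglia markers had peaks at both ages, as did 2 of 3 endothelial and 2 of 3 choroid plexus markers, and 1 of 3 tanycyte and ependymal markers. Of 4 pituitary hormone genes, none had a peak at 5 weeks and Lhb had 1 at 3 weeks. Of 2 ventromedial nucleus markers, Fezf1 had peaks at 5 weeks and neither had any at 3 weeks. The part that the makeup of the tissue plays in the results below was not tested, and in bulk tissue fewer cells of a type and less RNA per cell cannot be told apart.

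Peaks were listed for all 36 genes at 5 weeks and for 33 at 3 weeks. Psma1, Psmb9 and Psmd13 had peaks at 5 weeks only (8.33%), near the 8.40% of all gene symbols, and none of the 36 had them at 3 weeks only, beside 4.74% of all. The lists gave 68 peaks to these genes at 5 weeks, of 33056 in all, and 57 at 3 weeks, of 29653. Since the rule draws on genes that are in the lists, these counts do not say how often proteasome transcripts are methylated. For that, a list of 48 subunits, activators and chaperones was used, all of them in RefSeq. Of these, 34 (70.8%) carried a peak at 5 weeks and 31 (64.6%) did at 3 weeks, beside 53.2% and 51.3% of 23154 RefSeq protein-coding symbols at 5 and 3 weeks. The RefSeq share counts every symbol, whether or not the tissue expresses it, so it is not a share of expressed genes.

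The 19S particle had peaks on 17 of 17 subunits at 5 weeks and 16 at 3 weeks (94.1%), above the share of RefSeq protein-coding symbols. Whether it is above the share of expressed genes was not tested, as the level of each transcript is unknown. The 20S core had them on 8 of 15 subunits at 5 weeks (53.3%) and 7 at 3 weeks (46.7%), near that share. All 6 ATPases (Psmc1 to Psmc6) had a peak at both ages, and of 11 non-ATPase subunits 11 had one at 5 weeks and 10 did at 3 weeks, without Psmd13. In the core, 5 of 8 alpha genes were marked at 5 weeks and 4 were at 3 weeks, and no peak was listed for Psma5, Psma6 or Psma8, the last of which is a testis subunit. Of 7 constitutive beta genes, 3 had peaks at each age (Psmb1, Psmb3 and Psmb7), and none was listed for Psmb2, Psmb4, Psmb5 or Psmb6, the last 2 of which carry catalytic sites. Of the 4 inducible beta genes, which replace the constitutive catalytic subunits in immune cells and the thymus, Psmb9 alone had a peak, at 5 weeks. Among 5 activator and inhibitor genes 4 had peaks at each age, Psme3 having none, and among 7 chaperone genes 4 did, Psmg2, Psmd9 and Psmd10 having none. A gene without a listed peak may be unmethylated or may have had too few reads, and these cannot be told apart without counts.

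Most genes had only 1 or 2 peaks. At 5 weeks 13 genes had 1 peak, 17 had 2, 4 had 3, 1 had 4 and 1 had 5, with a mean of 1.89 per gene, against 2.37 over all genes with peaks. At 3 weeks 18 had 1, 8 had 2, 5 had 3 and 2 had 4, with a mean of 1.73 against 2.21 over all genes. Of the 36 genes, 12 had more peaks at 5 weeks, 4 had fewer and 20 had as many at both ages.

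In their place along the mRNA the proteasome peaks stood apart from the whole set mainly at the start codon. The start codon held 16.2% of the proteasome peaks at 5 weeks (11 peaks, 95% Wilson interval 9.28 to 26.7%) and 21.1% at 3 weeks (12 peaks, 12.5 to 33.3%), beside 7.85% and 8.46% of all peaks at 5 and 3 weeks. The coding exons held 20.6% at 5 weeks (12.7 to 31.6%) and 12.3% at 3 weeks (6.08 to 23.2%), below the 29.7% and 27.8% of all peaks, with the 5-week interval reaching past the share of all peaks. The stop codon held 26.5% at 5 weeks (17.4 to 38.0%) and 29.8% at 3 weeks (19.5 to 42.7%), beside 22.9% and 24.6% of all peaks. The 3' UTR held 27.9% and 26.3%, and the 5' UTR 8.82% and 10.5%, at 5 and 3 weeks. These intervals cover counting error over peaks only, peaks of 1 gene are not independent, and the intervals of the 2 ages overlap for each region.

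The median proteasome peak was enriched less than the median of all peaks at both ages, as were those of some other gene sets. The median log2 enrichment of their peaks was 2.65 at 5 weeks (6.28-fold) and 2.74 at 3 weeks (6.66-fold), while over all peaks it was 2.81 at 5 weeks (6.99-fold) and 3.17 at 3 weeks (9.01-fold). For the leading peak of each gene, the one with the smallest p of the peak caller, the medians were 3.16 at 5 weeks and 3.40 at 3 weeks, against 3.48 and 3.97 over all genes. Over all peaks, nuclear-encoded oxidative phosphorylation genes had medians of 2.39 at 5 weeks and 2.90 at 3 weeks, and ribosomal protein genes 2.86 and 2.97 at 5 and 3 weeks. Proteasome peaks lay between 0.67 and 5.28 at 5 weeks and between 1.30 and 6.37 at 3 weeks. At the stop codon, the proteasome median was 3.39 at 5 weeks and 3.51 at 3 weeks, beside 3.54 (5 weeks) and 4.11 (3 weeks) over all genes. In the coding exons the proteasome median was 2.16 at 5 weeks and 2.26 at 3 weeks, beside 2.62 (5 weeks) and 2.91 (3 weeks). The gap between proteasome peaks and all peaks was thus wider at 3 weeks over all peaks, at the stop codon and in exons, but not in every region. In the 3' UTR the proteasome median was 2.16 at 5 weeks and 2.56 at 3 weeks, beside 2.42 (5 weeks) and 2.64 (3 weeks). At the start codon it was 2.48 at 5 weeks and 2.97 at 3 weeks, beside 2.96 (5 weeks) and 3.33 (3 weeks). The gap was narrower at 3 weeks in these regions. In the 5' UTR the proteasome median was 3.10 at 5 weeks and 3.06 at 3 weeks, beside 2.79 (5 weeks) and 3.09 (3 weeks) over all genes. It was thus above that of all genes at 5 weeks.

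**Figure D1:**
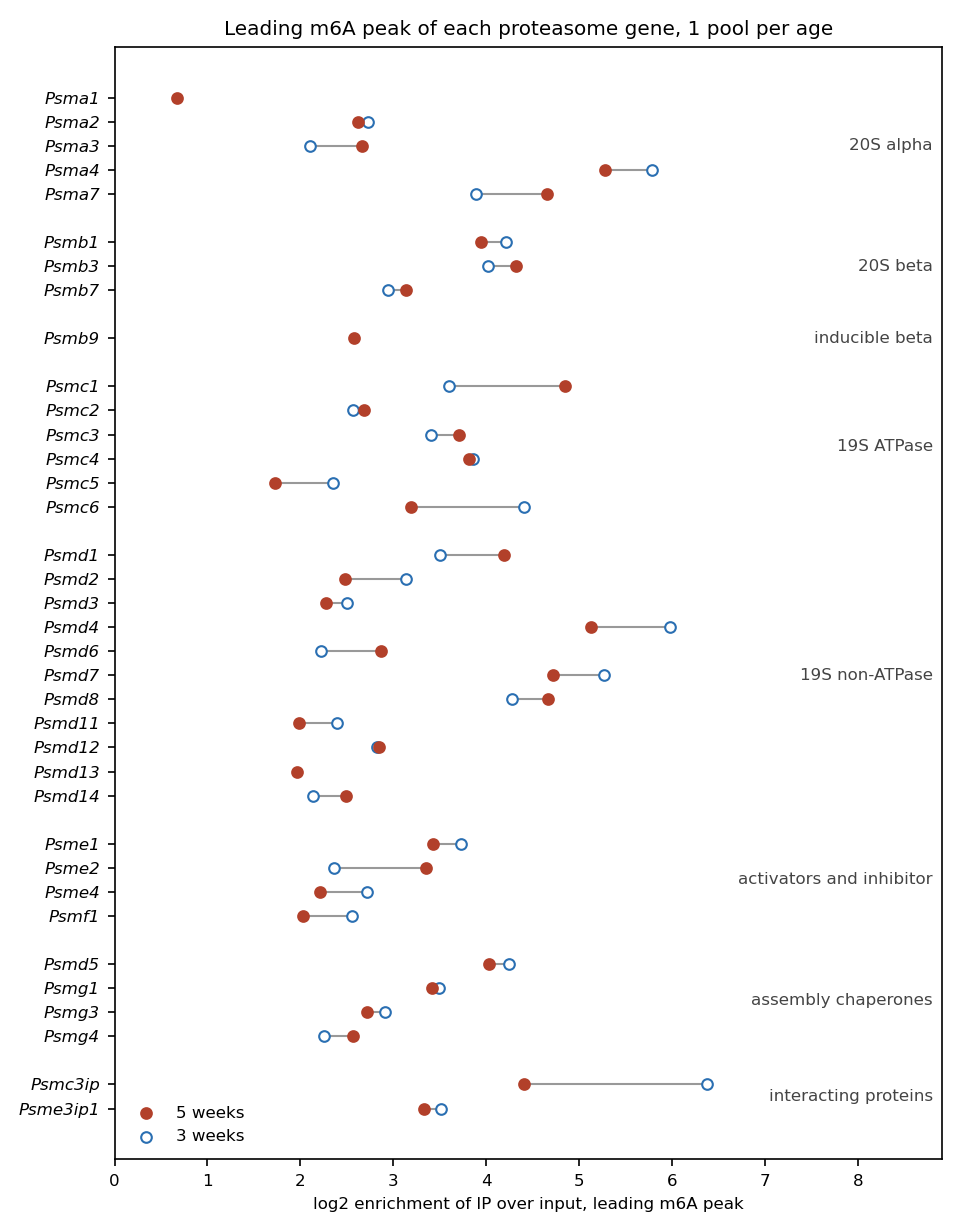
Log2 enrichment of IP over input at the leading m6A peak of each of the 36 genes, with the 5-week pool as filled points and the 3-week pool as open points, 1 pool per age and no error bars. Genes are grouped by role; Psma1, Psmb9 and Psmd13 have a 5-week point only, and Psma4 and Psmd4 lie above 5 at both ages.

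Peaks of the 2 ages were paired where they lay on the same gene and strand and shared at least 1 base of their genomic span. Of the 68 proteasome peaks at 5 weeks, 48 had a partner (70.6%, Wilson interval 58.9 to 80.1%), and of the 57 at 3 weeks, 48 did (84.2%, 72.6 to 91.5%), beside 68.1% and 75.9% of all peaks at 5 and 3 weeks. The 48 pairs fell in 32 genes. Peaks without a partner were weaker than those with one, in these genes and in general. The 20 at 5 weeks had a median log2 enrichment of 2.00 against 2.78 for those with a partner, beside 2.31 against 3.12 over all genes, and the 9 at 3 weeks had a median of 2.61 against 2.85, beside 2.61 against 3.41. The strongest of them were the stop codon peak of Psmd7 (4.72) and a 3' UTR peak of Psma2 (4.22) at 5 weeks, and a start codon peak of Psme4 (4.24) at 3 weeks. Each peak was paired once, so some left without a partner still overlapped a peak of the other age. The Psmd7 stop codon peak lay within a 3-week peak that was paired with another one. Others of this kind were in Psmb1, Psmc5, Psmd12 and Psmd4 at 3 weeks and in Psmc5 and Psme4 at 5 weeks.

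Between the ages the proteasome peaks went both ways, while peaks in general were mostly weaker at 5 weeks. Of the 48 pairs, 22 were higher and 26 lower at 5 weeks, and the median difference was -0.08 on the log2 scale, 0.948 times the 3-week enrichment. Over all 22499 pairs, 31.0% were higher at 5 weeks, and the median was -0.31, 0.807 times. The quartiles were -0.51 and 0.32 for proteasome pairs and -0.76 and 0.12 for all pairs, so the spread was of like width, 0.83 and 0.87. At least 1.5-fold apart in either direction were 17 proteasome pairs (35.4%), beside 43.7% of all pairs. A difference of at least 2-fold was seen upward in 2 proteasome pairs (4.17%), with 4.88% of all pairs past it, and downward in 5 (10.4%), with 15.6% of all pairs past it. Relative to the median of all pairs, 35 proteasome pairs were higher and 13 lower, with a median that turned to 0.23, and 4 were at least 2-fold higher and 4 at least 2-fold lower. The shares of all pairs past 2-fold after this centring were not computed. The scaling between the libraries is not known, so the sign of small differences depends on this choice. Without Psmc3ip and Psme3ip1, the median of the remaining 46 pairs was -0.06, with 2 past 2-fold upward and 4 downward.

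The share of pairs higher at 5 weeks differed by region. In exons it was 71.4%, against 36.1% of all exon pairs, and in the 3' UTR 60.0% against 30.7%. At the start codon it was 40.0% against 36.5%, in the 5' UTR 40.0% against 35.2%, and at the stop codon 31.25% against 23.4%. There the direction was closer to that of all pairs than in exons and the 3' UTR. The 7 exon pairs had a median difference of 0.46, 5 of them higher at 5 weeks, beside -0.21 for all exon pairs. At the 3' UTR, 6 of 10 were higher, with a median of 0.08, beside -0.26. Stop codon pairs were mostly lower at 5 weeks, 11 of 16, with a median of -0.12, beside -0.48, but relative to all pairs 13 of them were higher, with a median of 0.19. The 10 start codon pairs had the lowest median, -0.68, with 6 lower, beside -0.23 for all start codon pairs. Relative to all pairs the start codon median stayed below 0, at -0.37. In the 5' UTR 2 of 5 were higher, with a median of -0.08 beside -0.27, which turned to 0.23 relative to all pairs. Taken over both 5' regions, 15 pairs had 4 past 2-fold downward (26.7%, against 15.6% of all such pairs) and 1 upward, whereas the 33 pairs at exons, stop codons and 3' UTRs had 1 past it in each direction (3.03%, against 15.3% downward and 4.14% upward). These are few peaks, and 1 of the 4, in Psmd7, compares spans of unlike extent, as given with that gene.

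**Figure D2:**
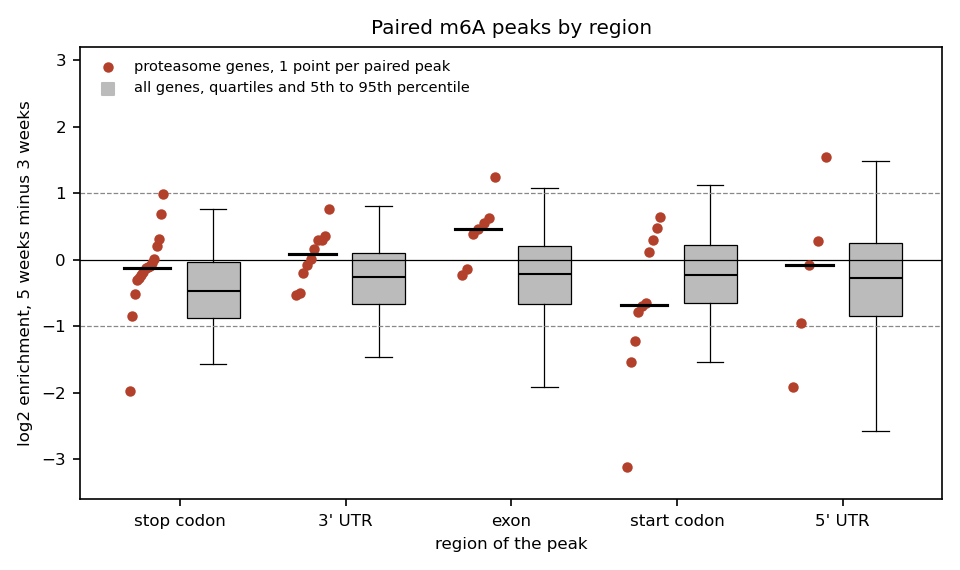
Difference in log2 enrichment, 5 weeks minus 3 weeks, of the 48 paired proteasome peaks (red points, with a bar at their median) and of all paired peaks (grey boxes, quartiles and median, whiskers at the 5th and 95th percentile), by region; dashed lines mark 2-fold. Exon points lie mostly above 0 and start codon points mostly below it. The lowest point, of Psmd7 at -3.11, joins a 5-week start codon peak to a longer 3-week stop codon peak and so compares unlike spans.

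The level at 3 weeks also went with the difference, although the 3-week value enters both. Of 20 proteasome pairs above the 3-week median of all peaks (3.17), 6 were higher at 5 weeks, with a median of -0.25 beside -0.62 for all such pairs. Of 28 at or below it, 16 were higher, with a median of 0.06 beside -0.02.

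Within the 20S core, the alpha subunits had 7 pairs, 4 of them higher at 5 weeks, with a median of 0.15. The strongest peak of the family at 5 weeks was at the stop codon of Psma4 (chromosome 8, 55346229-55347890, plus strand), at 5.28 at 5 weeks and 5.78 at 3 weeks, which put it at the 95.4th percentile of all 5-week peaks and the 93.9th of all 3-week peaks. Its start codon peak (chromosome 8, 55340385-55342081) was at 2.07 at 5 weeks and 3.61 at 3 weeks, a difference of -1.53, so both marks of this gene were lower at 5 weeks and the weaker one by more. The coordinates are those of the files, with introns included. The files name no rat genome build.

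The other alpha subunits were flat or higher at 5 weeks. Psma7 had 1 peak, in the 3' UTR, at 4.65 at 5 weeks and 3.89 at 3 weeks. Psma3, which held the lowest leading peak of the alpha genes at 3 weeks, had an exon peak at 2.66 at 5 weeks and 2.10 at 3 weeks, and its pair of 3' UTR peaks were at 1.89 and 1.84 at 5 weeks, against 1.53 and 1.69 at 3 weeks. All 3 Psma3 pairs were thus higher at 5 weeks by less than 2-fold. Psma2 had a stop codon peak at 2.61 at 5 weeks and 2.73 at 3 weeks, besides the 5-week 3' UTR peak. Psma1 had a pair of 3' UTR peaks at 5 weeks only, at 1.79 and 0.67. The second of these is the lowest enrichment in the whole 5-week list, and by the caller's p it was the leading peak of the gene.

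The beta subunits, which include the catalytic ones, had 4 pairs, 3 higher at 5 weeks, with a median of 0.24. The highest leading peak at 5 weeks was in the 3' UTR of Psmb3, a structural beta subunit, at 4.32 at 5 weeks and 4.02 at 3 weeks. At 3 weeks it was the stop codon peak of Psmb1, at 3.94 at 5 weeks and 4.21 at 3 weeks. Psmb1 also had a 5' UTR peak, at 2.73 at 5 weeks and 2.45 at 3 weeks. Psmb7, which encodes the subunit with trypsin-like activity, had the lowest leading peak of the group, at the stop codon, at 3.14 at 5 weeks and 2.94 at 3 weeks. None of the 4 pairs differed by more than 0.30 on the log2 scale. Psmb9, an interferon-inducible catalytic subunit of the immunoproteasome, had 1 stop codon peak (chromosome 20, 4672229-4672479), at 2.58 at 5 weeks, and none at 3 weeks.

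Among the ATPases of the 19S base, 12 pairs split evenly, 6 higher and 6 lower at 5 weeks, with a median of -0.02 that turned to 0.29 relative to all pairs, and this group held peaks past 2-fold in both directions. Psmc1, which encodes Rpt2, a subunit whose tail opens the gate of the core, had peaks that differed in opposite directions (chromosome 6, plus strand). Its exon peak (119393938-119397365 at both ages) was at 4.85 at 5 weeks and 3.60 at 3 weeks, a difference of 1.25. Its 5' UTR peak (119393138-119393513 at 5 weeks, 119393088-119393813 at 3 weeks) was at 2.78 at 5 weeks and 4.69 at 3 weeks, a difference of -1.91. The stronger peak of this transcript was therefore in the exon at 5 weeks and in the 5' UTR at 3 weeks. The exon peak was at the 92.6th percentile of all peaks at 5 weeks and the 60.4th at 3 weeks, and the 5' UTR peak at the 49.0th at 5 weeks and the 82.0th at 3 weeks.

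Psmc6, which encodes Rpt4, had its leading peak at the start codon (chromosome 15, 18542562-18545025), the highest leading peak among the ATPases at 3 weeks, at 3.18 at 5 weeks and 4.40 at 3 weeks, a difference of -1.22 that was -0.91 relative to all pairs. Its 3' UTR pairs were at 2.16 and 1.31 at 5 weeks, against 1.87 and 1.30 at 3 weeks, so the lower value at 5 weeks was seen at the start codon and not in these pairs. The stronger of them compares spans of unlike extent, 5340 bases at 5 weeks and 2262 at 3 weeks. Another 3' UTR peak of Psmc6, at 1.97, was listed at 3 weeks and had no partner at 5 weeks. Psmc4 also had a lower start codon value at 5 weeks, 1.85 against 2.55 at 3 weeks, but over spans of unlike extent (2717 bases at 5 weeks and 1145 at 3 weeks). Its stop codon peak was at 3.81 at 5 weeks and 3.86 at 3 weeks.

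In the other ATPases the start codon peak was higher at 5 weeks by less than 2-fold. Psmc3 had it at 3.70 at 5 weeks and 3.40 at 3 weeks. Psmc2 had it at 2.68 at 5 weeks and 2.57 at 3 weeks, with a stop codon peak at 2.33 at 5 weeks and 2.43 at 3 weeks. Psmc5 had the lowest leading peaks of the ATPases, an exon peak at 1.73 at 5 weeks and the start codon peak at 2.35 at 3 weeks. These 2 are different peaks. The start codon pair of Psmc5 was at 2.83 at 5 weeks and 2.35 at 3 weeks, and its 3' UTR pair at 2.79 at 5 weeks and 2.86 at 3 weeks. The 3-week start codon span of this gene (91187742-91191936 on chromosome 10) also covers a peak that the 5-week list gives separately as an exon peak (91191379-91191936, at 2.01).

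The non-ATPase subunits of the 19S particle had 13 pairs, 6 higher and 7 lower at 5 weeks, with a median of -0.13 that turned to 0.18 relative to all pairs. Psmd4, a receptor for ubiquitin chains, had the strongest leading peak of the group, at the stop codon (chromosome 2, minus strand, 182598933-182602672 at 5 weeks and 182598933-182599866 at 3 weeks), at 5.12 at 5 weeks and 5.97 at 3 weeks. Its start codon peak was at 2.03 at 5 weeks and 2.81 at 3 weeks. Both peaks of Psmd4 were lower at 5 weeks, by -0.85 and -0.79 on the log2 scale, but both pairs compare spans of unlike extent. The start codon span was 182602772-182608187 at 5 weeks and 182600266-182608187 at 3 weeks, where it reaches into the 5-week stop codon span. Over a region common to both ages, given further below, the stop codon difference was -0.36. The 5-week span at the Psmd4 stop codon also covers a short exon peak that the 3-week list gives apart, at 2.52.

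Psmd7, which encodes the partner of the deubiquitinase in the 19S lid, had a stop codon peak at 4.72 at 5 weeks (chromosome 19, 35494465-35495801) and at 5.27 at 3 weeks (35494465-35501573). The 5-week list gives a separate start codon peak at 2.16 (35497450-35501588), whereas the 3-week span runs over both places. The pairing by longest overlap joined the 5-week start codon peak to the 3-week stop codon peak, and the resulting -3.11, the largest difference of the 48, compares different parts of the transcript. Leaving out the pairs whose region labels differ (this one and one of Psmd3) leaves 46.

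Psmd14, the deubiquitinase of the lid, had the largest upward difference, 1.54, at a short 5' UTR peak (chromosome 3, 46254329-46254429 at 5 weeks), at 3.68 at 5 weeks and 2.14 at 3 weeks. At 3 weeks this was its only peak and the lowest leading peak among the non-ATPase subunits, and at 5 weeks its leading peak was another, in the 3' UTR, at 2.49. The lowest leading peak at 5 weeks was the start codon peak of Psmd13 (chromosome 1, 195964612-195965774), at 1.97, with none at 3 weeks. Psmd11, a lid subunit, had 3 peaks at 5 weeks (1.98, 1.82 and 2.26) and 1 at 3 weeks (2.39), none of which overlapped.

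The scaffold subunits of the 19S base, Psmd1 and Psmd2, differed in direction and in place. Psmd1 had a stop codon peak at 4.18 at 5 weeks and 3.50 at 3 weeks, and Psmd2 a start codon peak at 2.48 at 5 weeks and 3.13 at 3 weeks. Psmd12, a lid subunit, had 3 pairs that followed the order by region. Its 5' UTR peak was at 3.78 at 5 weeks and 4.73 at 3 weeks, its exon peak at 2.72 at 5 weeks and 2.26 at 3 weeks, and its stop codon peak at 2.84 at 5 weeks and 2.83 at 3 weeks. The exon spans were of unlike extent. That of 5 weeks starts earlier and also covers a short start codon peak that the 3-week list gives apart, at 3.48. Psmd6 departed from that order, with a start codon peak at 2.87 at 5 weeks and 2.22 at 3 weeks and a stop codon peak at 2.09 at 5 weeks and 2.22 at 3 weeks. Psmd8 had a short exon peak at 4.67 at 5 weeks and 4.28 at 3 weeks, and Psmd3 a peak labelled exon at 5 weeks and start codon at 3 weeks, at 2.27 at 5 weeks and 2.50 at 3 weeks.

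Of the activators and the inhibitor, 4 of 5 pairs were lower at 5 weeks, with a median of -0.30, but relative to all pairs 2 were lower and the median was 0.01. The exception was Psme2, which with Psme1 forms the interferon-inducible PA28 cap. Its stop codon peak was at 3.35 at 5 weeks and 2.36 at 3 weeks, 0.99 apart and just short of 2-fold, and at 3 weeks it was the lowest leading peak of the group. The stop codon peak of Psme1, the highest leading peak of the group at both ages, was at 3.43 at 5 weeks and 3.73 at 3 weeks. The subunits of this cap thus had like values at 5 weeks and unlike ones at 3 weeks. Psme4, the PA200 cap, had a 3' UTR peak at 2.21 at 5 weeks and 2.72 at 3 weeks and an exon peak at 1.79 at 5 weeks and 1.94 at 3 weeks. Psmf1, the inhibitor PI31, had a 3' UTR peak at 2.03 at 5 weeks, the lowest leading peak of the group at that age, and 2.56 at 3 weeks.

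The assembly chaperones had 5 pairs, none with a difference beyond 0.63, and a median of -0.08 that turned to 0.23 relative to all pairs. Psmd5, a chaperone of the 19S base, had the highest leading peak, at the stop codon, at 4.02 at 5 weeks and 4.25 at 3 weeks. Psmg4, a chaperone of the alpha ring, had the lowest, also at the stop codon, at 2.57 at 5 weeks and 2.26 at 3 weeks. Its partner Psmg3 had a 3' UTR peak at 2.72 at 5 weeks and 2.91 at 3 weeks. Psmg1, which works with Psmg2 on the same ring, had an exon peak at 2.76 at 5 weeks and 2.12 at 3 weeks and a 5' UTR peak at 3.41 at 5 weeks and 3.50 at 3 weeks. Both peaks of the interacting-protein genes were at the stop codon and lower at 5 weeks. Psmc3ip had the strongest 3-week peak of the 36 genes (chromosome 10, 86024274-86027168 at 5 weeks), at 4.40 at 5 weeks and 6.37 at 3 weeks, a difference of -1.97, and Psme3ip1 was at 3.32 at 5 weeks and 3.51 at 3 weeks.

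A separate table compares the ages over common regions and holds only regions under a p of 0.05 in the authors' comparison, so its values lean towards large differences. It held 19 peaks in 18 of the 36 genes, of 12704 peaks in 8564 genes. Of the 19, 9 were higher and 10 lower at 5 weeks (47.4% higher, against 18.0% of all peaks of the table), with a median difference of -0.36 against -0.95. Past 2-fold were 2 upward (10.5%), with 10.6% of all peaks of the table past it, and 4 downward (21.1%), with 46.9% of all past it. Relative to the median of the whole table, the median of the 19 turned to 0.60, with 9 at least 2-fold higher and 1 at least 2-fold lower. Those 9 were the peaks already counted as higher at 5 weeks, since centring by -0.95 moved the zero point by nearly the threshold. The share of all peaks of the table past 2-fold after centring was not computed. Without Psmc3ip and before centring, the median of the 18 peaks was 0.05. By either measure the proteasome peaks leaned less to lower values at 5 weeks than the table as a whole.

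The 2 peaks past 2-fold upward in that table were exon peaks. The exon peak of Psmb3 (chromosome 10, 82697424-82697807) was at 3.07 at 5 weeks and 1.13 at 3 weeks, a difference of 1.94, and the 3-week list held no peak there. The exon peak of Psmc1 was at 4.68 at 5 weeks and 3.64 at 3 weeks, a difference of 1.04. All 4 exon peaks of the table were higher at 5 weeks, the others being Psmc5 (0.60) and Psmd12 (0.46), while 32.1% of all exon peaks there were higher.

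The 4 downward peaks lay in other regions. The 5' UTR peak of Psmc1 was at 2.16 at 5 weeks and 4.72 at 3 weeks, a difference of -2.56, and the start codon peak of Psmc6 was at 3.07 at 5 weeks and 4.42 at 3 weeks, a difference of -1.35. The stop codon peak of Psmc3ip was at 4.22 at 5 weeks and 5.44 at 3 weeks, and the 3' UTR peak of Psmf1 at 1.67 at 5 weeks and 3.41 at 3 weeks. Relative to the median of the table, Psmc1 alone stayed past 2-fold (-1.61), with Psmc6 at -0.40, Psmc3ip at -0.27 and Psmf1 at -0.78. For Psmf1 the size also depended on the source, -1.74 in the table and -0.52 in the separate lists. Of the 8 stop codon peaks, 3 were higher at 5 weeks (Psma2, Psmd1 and Psme2), against 6.68% of all stop codon peaks of the table. Of the 4 peaks at the start codon or 5' UTR, 2 were past 2-fold downward (50.0%), beside 49.8% of all such peaks. The higher downward share of the paired peaks at these 5' regions was thus not seen in the table. Relative to the median of the table, 2 of its 3 start codon peaks were higher, with a median of 0.50.

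The table and the separate lists rest on the same 4 libraries, so they are not independent. Of the 19 table peaks, 17 could be compared with a pair of the lists, and 16 had the same sign in both. The exception was the stop codon peak of Psma2, at 2.95 at 5 weeks and 2.19 at 3 weeks in the table (0.77) and -0.11 in the lists, where the 5-week span was longer. For Psmd7 the table, with 1 region for both ages, gave 4.41 at 5 weeks and 5.30 at 3 weeks, a difference of -0.89. For Psmd4 the table took the shorter span and gave 5.61 at 5 weeks and 5.96 at 3 weeks, a difference of -0.36 in place of -0.85. The 3' UTR peak of Psme4 differed by -0.93 in the table and by -0.51 in the lists. Among the remaining peaks the table gave differences of 0.55 for Psma7, 0.55 for Psmd1, 0.73 for Psmd6 and 0.85 for Psme2, and of -0.64 for Psma4, -0.46 for Psmb1 and -0.45 for Psmd2, all with the sign of the lists.

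**Figure D3:**
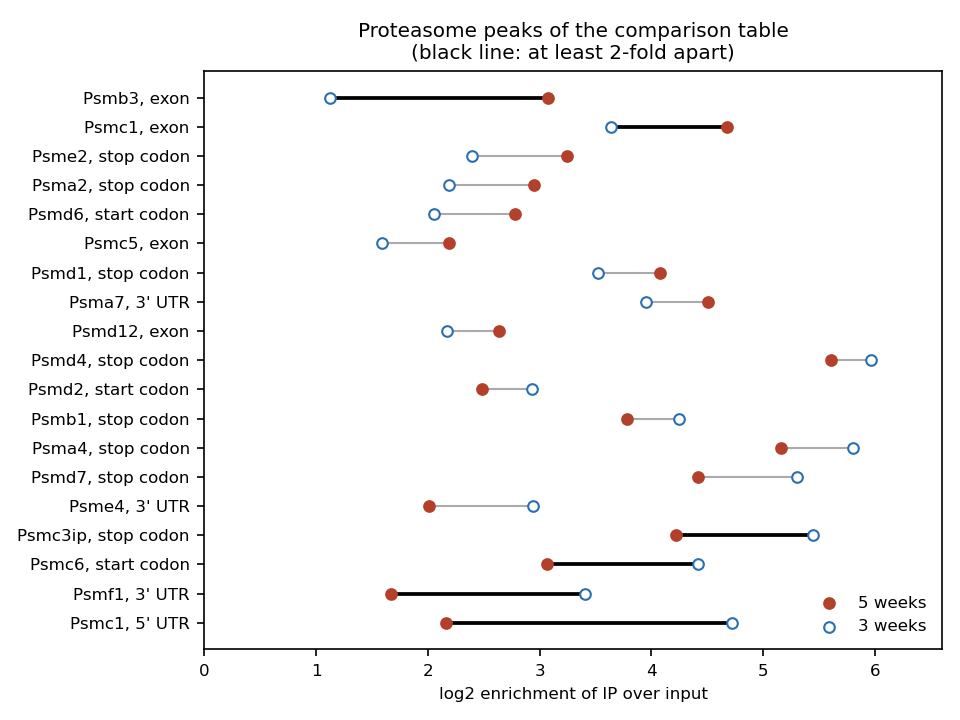
Log2 enrichment of IP over input at the 19 proteasome peaks of the comparison table, ordered by the difference, with the 5-week pool filled and the 3-week pool open, 1 pool per age and no error bars. Black lines join the 6 peaks at least 2-fold apart: Psmb3 and Psmc1 exon peaks are higher at 5 weeks, and the Psmc3ip, Psmc6, Psmf1 and Psmc1 5' UTR peaks are lower.

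Other genes of the same system are given for comparison, from a list of 26 partners and regulators, of which 25 were marked at 5 weeks and 23 were at 3 weeks. Their 29 pairs had a median difference of -0.37, with 9 higher and 20 lower at 5 weeks, none past 2-fold upward and 3 downward, so as a list they lay near the median of all pairs (-0.31). By the leading peak, the largest differences were in Pomp, the maturation chaperone of the core, with a 3' UTR peak at 1.97 at 5 weeks and 2.78 at 3 weeks. In the comparison table Pomp had the opposite sign, at 2.99 at 5 weeks and 1.67 at 3 weeks. The 19 partner peaks of that table had a median of -0.88, with 6 past 2-fold downward and 3 upward, which were that of Pomp and a pair of peaks in the ubiquitin ligase gene Ubr4 (2.27 at the start codon and 2.04 in an exon), named after their values were seen. A list of 6 ubiquitin precursor and activating enzyme genes had 8 pairs, 5 of them higher at 5 weeks, with a median of 0.14.

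Nfe2l1, the transcription factor that raises proteasome genes when proteasome activity is low, had a start codon peak at 3.98 at 5 weeks and 4.78 at 3 weeks and a stop codon peak at 3.70 at 5 weeks and 4.58 at 3 weeks. In the table these were also lower at 5 weeks, by -1.05 and -1.15. Ddi2, the protease that cleaves and so activates that factor, had a stop codon peak at 4.16 at 5 weeks and 4.73 at 3 weeks. Ngly1, which removes its glycans, had a 3' UTR peak at 2.34 at 5 weeks and 1.81 at 3 weeks, the one of the named partners that was higher at 5 weeks in the separate lists. Sem1, a small subunit of the 19S lid that the symbol rule does not take in, had a 3' UTR peak at 2.00 at 5 weeks and 2.77 at 3 weeks.

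Ribosomal protein genes and nuclear-encoded oxidative phosphorylation genes, which encode parts of other large complexes, were set beside the proteasome in the same way. Ribosomal proteins had 49 pairs with a median difference of 0.35, 65.3% of them higher at 5 weeks. Oxidative phosphorylation genes had 66 pairs with a median of -0.03, 47.0% higher. The proteasome, with its median of -0.08 and 45.8% higher, lay closest to the oxidative phosphorylation genes, and all 3 sets lay above the median of all pairs, while the partners lay below it. In the comparison table the medians were -0.36 for the proteasome, 0.68 for ribosomal proteins (46 peaks) and 0.10 for oxidative phosphorylation (30 peaks). With 1 pool per age these orders are a description of these libraries.

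**Figure D4:**
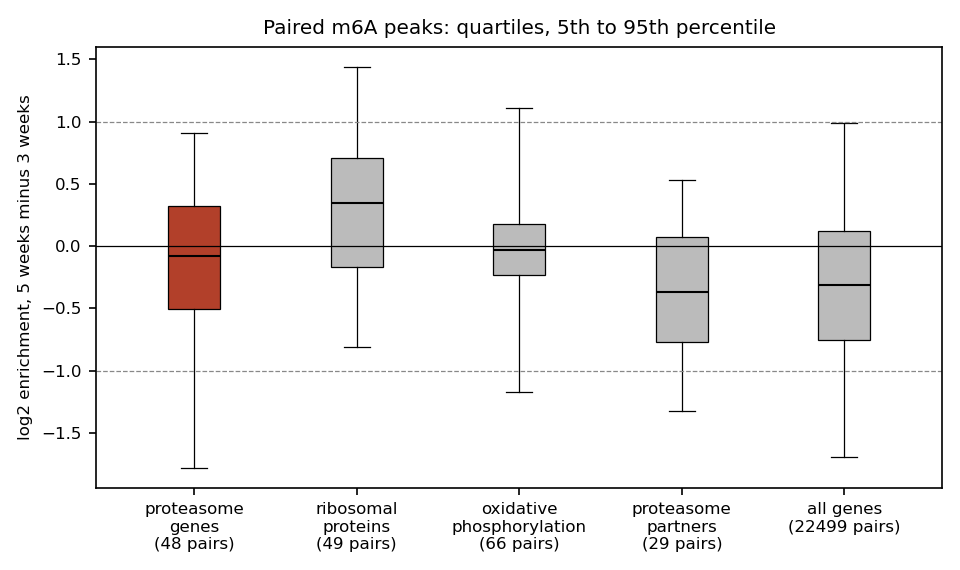
Difference in log2 enrichment, 5 weeks minus 3 weeks, of paired m6A peaks in proteasome genes (red), ribosomal protein genes, oxidative phosphorylation genes, proteasome partners and all genes, with boxes at the quartiles, a line at the median and whiskers at the 5th and 95th percentile. The proteasome median (-0.08) lies below that of ribosomal proteins (0.35) and above those of the partners (-0.37) and of all genes (-0.31).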

How the data were processed

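MeRIP-seq libraries of arcuate nucleus RNA came from 1 pool of 3 female Sprague-Dawley rats per age, 1 IP and 1 input library each. Among tools, HISAT2 (2.0.4) and fastp (0.19.4) are listed in the submitters' processing notes. They also name a human genome build, so coordinates are given without a build. For the peak caller and its scaling, nothing is given in the sources used here. Lists deposited by the authors give the log2 enrichment of IP over input per peak at each age, and the authors' deposited comparison table gives both log2 values for common regions. The p-value and adjusted p-value of each peak were also made by the authors before deposit, and the lists hold p up to 0.0496 at 5 weeks and 0.0497 at 3 weeks. Fold changes, p-values and direction calls of the authors' own comparison are in that table and were not used. No counts were given, so depth and precision are unknown.

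Genes, leading peaks and regions were read with Python 3.11.15 and pandas 2.3.3. Peaks were paired by strand, gene symbol and an overlap of at least 1 base, longest overlap first, each peak once. Differences are 5 weeks minus 3 weeks on the log2 scale. Shares have Wilson intervals (95%, scipy 1.17.1). With 1 library of each kind per age, no test was run. The pairing was tested on simulated data. Values were named for members whose leading pair or comparison peak differed by at least 2-fold, those listed at 1 age only, and the highest and lowest leading peak of each role group. Up to 6 partners with the largest leading differences were also chosen, of which 1 is not reported here though the counts include it, and other values were given so that each gene is accounted for. The members and lists were chosen with earlier results of these data known. Alternatives covered thresholds, overlap, centring, and the value taken per gene. No peak sequence was read, since no genome of the files' build was used here.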

Additional observations from a re-analysis of the deposited data

How the results depend on the processing

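Of the alternative values of the main results, 67 stayed within the limits set (1.5 times for a count, an order-statistic interval over the peaks for a median, the Wilson interval for a share) and 21 did not. Median differences between the ages kept within that interval and still turned sign in 3 cases. Centring on all peaks of the source turned the paired median to 0.23 and that of the comparison table to 0.60, and leaving out Psmc3ip turned the table's median to 0.05. Centring also took Psmc6 below 2-fold in both sources (-0.91 and -0.40), and Psmc3ip (-0.27) and Psmf1 (-0.78) in the comparison table, where centring on all pairs put Psmc3ip at -0.91. With the leading peak of each gene alone, the stop codon held 44.4% of peaks at 5 weeks and 45.5% at 3 weeks, the 5' UTR held 2.78% at 5 weeks, and the median log2 enrichment at 5 weeks was 3.16. For the paired peaks, those past the threshold upward numbered 4 after centring on all pairs, 7 at 1.5-fold and 0 at 4-fold. Downward they numbered 10 at 1.5-fold and 1 at 4-fold. Taken per gene and not per pair, there were 1 upward and 2 downward with leading peaks. With the mean over the peaks of a gene there were 0 upward and 3 downward. These per-gene values came from the list of each age, so the peaks compared were not always a pair. In the comparison table, those upward numbered 9 after centring on the table, 5 after centring on all pairs, 6 at 1.5-fold, 0 at 4-fold and 1 with the same regions taken from the separate lists, and downward 1 after centring on the table, 7 at 1.5-fold and 1 at 4-fold. The 9 after centring on the table were the peaks already higher at 5 weeks without it. The cause of the changes was not tested, except that a stricter or looser fold counts fewer or more peaks by construction. Leaving out Psmc3ip and Psme3ip1, and keeping only pairs with 1 region label, were settings added after the data were seen.

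No paired analysis was possible because each age had 1 IP and 1 input library, and for the same reason no replicate was left out. An overlap counted over exon blocks was not run, since the lists used here give no blocks.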
